A study of Mus musculus with 6 samples.

Results

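Esm1, Mcam, Cd34, Adm, Calcrl, Ramp1, Ramp2 and Ramp3 were examined in endothelial cells (ECs) from mouse lungs of sham-operated mice and of mice from which 1 lung had been removed (pneumonectomy, PNX). They were chosen by name, as 3 genes used to mark endothelial tip cells and 5 genes of the adrenomedullin ligand and receptor system, and are 8 of the 24063 gene symbols in the count tables. The cells came from male C57BL6 mice, 8 weeks old per the labels, and were isolated with magnetic beads carrying an antibody to CD31 (Pecam1). PNX mice were taken 7 days after the operation, and sham mice had their chest opened with no lung removed. No allele or drug distinguished the groups. Each group had 3 RNA-seq libraries, each pooled from 2 mice, so no value belongs to a single animal.

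A tip cell is the EC at the front of a growing vessel sprout, which senses VEGF and extends filopodia, while the stalk cells behind it form the tube. Esm1 (endocan) is a secreted proteoglycan that tip cells make, Cd34 is a cell surface sialomucin found on tip cell filopodia, and Mcam (CD146) is an adhesion molecule of ECs and pericytes that can act as a coreceptor of VEGFR2. Adrenomedullin, the peptide made from Adm, widens vessels and tightens the endothelial barrier. Its receptor is the G protein-coupled receptor Calcrl, which reaches the cell surface and gains its ligand preference only with a partner from the RAMP family: with Ramp1 it binds CGRP, and with Ramp2 or Ramp3 it binds adrenomedullin. Calcrl and Ramp2 are abundant in the lung endothelium.

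On GRCm38 (GENCODE vM21), Esm1 lies at chr13:113209659-113218098 on the plus strand with 3 exons, Cd34 at chr1:194938819-194961279 on the plus strand with 8 exons, and Adm at chr7:110627661-110629820 on the plus strand with 4 exons. Mcam lies at chr9:44134469-44142727 (plus), Calcrl at chr2:84330626-84425411 (minus), Ramp1 at chr1:91179822-91225196 (plus), Ramp2 at chr11:101246028-101259546 (plus) and Ramp3 at chr11:6658521-6677475 (plus). The promoters of Esm1 and Cd34 are shown because these members had the largest difference in each direction, and that of Adm because it encodes the ligand. Each runs from 250 bases before to 50 bases after the RefSeq start on GRCm38.p6, plus strand, at chr13:113209409-113209708, chr1:194938571-194938870 and chr7:110627407-110627706. Capitals mark GCGTG, a core of the hypoxia response element, or GGAAG, a core of ETS factor sites, in either orientation.
Esm1: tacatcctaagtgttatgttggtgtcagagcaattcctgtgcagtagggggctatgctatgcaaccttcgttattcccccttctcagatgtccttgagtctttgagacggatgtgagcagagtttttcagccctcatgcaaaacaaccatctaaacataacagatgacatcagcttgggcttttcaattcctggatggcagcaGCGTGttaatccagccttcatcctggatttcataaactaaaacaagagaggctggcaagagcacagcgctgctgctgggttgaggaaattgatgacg
Cd34: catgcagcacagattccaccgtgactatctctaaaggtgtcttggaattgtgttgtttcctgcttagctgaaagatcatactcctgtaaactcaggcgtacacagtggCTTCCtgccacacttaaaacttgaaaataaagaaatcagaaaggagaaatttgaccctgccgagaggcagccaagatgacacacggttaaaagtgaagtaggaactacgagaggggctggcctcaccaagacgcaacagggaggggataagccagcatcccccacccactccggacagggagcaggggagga
Adm: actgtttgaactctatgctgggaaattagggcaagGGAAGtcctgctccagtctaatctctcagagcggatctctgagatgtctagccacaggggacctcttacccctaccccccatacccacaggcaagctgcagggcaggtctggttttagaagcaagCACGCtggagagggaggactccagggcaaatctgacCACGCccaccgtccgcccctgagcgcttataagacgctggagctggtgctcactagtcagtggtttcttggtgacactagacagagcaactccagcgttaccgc
The Esm1 window held 1 GCGTG and no GGAAG, the Cd34 window held 1 GGAAG and no GCGTG, and the Adm window held 2 GCGTG and 1 GGAAG. Of all 32851 RefSeq promoters of this length, 32.39% held GCGTG and 71.41% held GGAAG, so neither is rare. The other hypoxia core searched, ACGTG, was present in 19.62% of them and in none of the 7 members' promoters that were matched. RefSeq's table had no entry for Ramp2.

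Total counts ranged from 29526989 to 81282871 per library and were lowest in replicate 3 of each group. Replicates 1 and 2 of each group came from an earlier deposit and replicate 3 from a later one. The paper counts n = 3 per group, each pooled from 2 mice, and the number of genes called below depends on whether this is kept. On average over genes, replicates 1 and 2 of each group differed by little more than counting error, so they were summed to 1 sample. Each comparison of PNX with sham therefore had 2 samples a group. Without a block, p-values weigh the difference against the spread between these samples, which may be technical. With the deposit as a replicate block, sham and PNX are compared within each deposit, and p-values rest on how alike the differences of the 2 deposits are. The spread used there is partly borrowed from other genes, with a common coefficient of variation of 0.0973 against 0.236 without the block. Levels below are CPM (counts relative to the library's TMM-scaled total), with sham replicates 1, 2 and 3 first and then PNX. Pecam1, the gene of the protein used for isolation, was at 2523 and 2020 CPM in the sham samples and at 2461 and 2128 CPM in the PNX samples, and Cdh5 (VE-cadherin) was between 1288 and 1529 CPM in all of them. In a list of 10 endothelial markers that holds both, 8 had a log2 fold change below 0 without the block and 2 above, with a median of -0.19. A level per Pecam1 count is thus relative to that gene and not to the number of ECs. All libraries are bulk RNA, in which fewer cells of a type and less RNA per cell cannot be told apart.

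Esm1 was the member with the largest difference, lower after PNX, while Cd34 was higher in every PNX library and Mcam likewise by less. Calcrl and its main partner Ramp2 differed more between the deposits than between the operations. None of the 8 members was called by edgeR's quasi-likelihood test without the block, which required an adjusted p below 0.01 with a log2 fold change beyond 1 in either direction, and 0% of all 16598 genes tested were. Over all genes 2076 had an unadjusted p under 0.05 in that test, DESeq2 called 572 and limma 0. Of the members, 2 (Esm1 and Cd34) had an unadjusted p under 0.05, DESeq2 called 1 (Esm1), and limma called 0. With the replicate block 1 member was called, Esm1, where 5.12% of all genes tested were (645 higher and 204 lower). With the block and DESeq2 size factors that split was 540 and 84, and with library size alone 550 and 79, and Esm1 was called with either. At an adjusted p under 0.05 with the block and no limit on fold, 2 members were higher (Mcam and Cd34) and 2 lower (Esm1 and Ramp1), where 11.5% of all genes tested were higher and 10.1% lower. With the 6 libraries as separate replicates 1 member was called, Esm1 again, against 2.51% of genes. The 3 PNX libraries lay wholly above the 3 sham libraries for Mcam and Cd34, as for 18.8% of genes, and wholly below for Esm1 and Adm, as for 17.9% of genes.

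**Figure D1:**
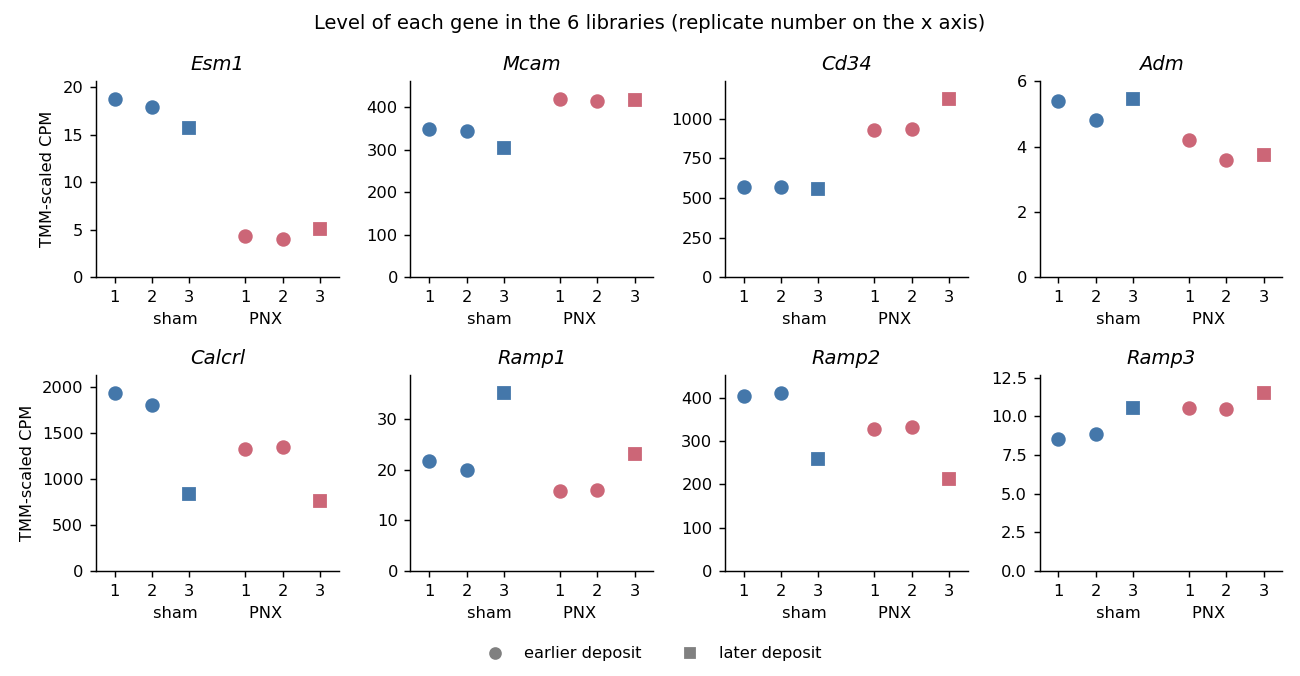
Level of each of the 8 genes in each library, in CPM on an axis from 0, for sham and PNX replicates of the earlier and the later deposit. Esm1 sits between 4.06 and 5.10 in the PNX libraries and between 15.7 and 18.8 in the sham libraries, while Calcrl separates replicate 3 of each group from the others.

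Esm1, the endocan gene, was at 18.8, 17.9 and 15.7 CPM in the sham libraries and at 4.28, 4.06 and 5.10 CPM in the PNX libraries. The highest PNX library was well below the lowest sham library, and the libraries of a group were close to each other. As raw counts these were 1511, 1284 and 528 in sham and 318, 266 and 152 after PNX. The sham samples averaged 17.1 ± 2.16 CPM against 4.65 ± 0.706 CPM for the PNX samples (SD, n = 2 each), a log2 fold change of -1.89 (SE 0.21), which edgeR gave an adjusted p of 0.0741 without the block. With the block Esm1 fell by 1.91 on the log2 scale (SE 0.16, adjusted p 0.000281, edgeR). The fall was present in each deposit: sham was 4.48-fold over PNX in the earlier (exact 95% interval 4.10 to 4.91) and 3.02-fold in the later (2.52 to 3.64), intervals that here and below cover counting error only. Per 1000 Pecam1 counts, Esm1 was at 7.37 and 7.70 in the sham samples and at 1.69 and 2.42 in the PNX samples. Only 45 of the 16598 genes tested had a lower log2 fold change, and 11 of the 14156 with a mean of at least 1 CPM. Esm1 overlaps Gzmk on the opposite strand, which held at most 8 counts in any library.

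Cd34, the sialomucin, was at 569, 572 and 557 CPM in the sham libraries and at 928, 937 and 1126 CPM in the PNX libraries. The groups did not overlap, and the PNX library of the later deposit was the highest. The sample means were 565 ± 17.9 CPM and 1032 ± 149 CPM (SD, n = 2), a log2 fold change of 0.87 (SE 0.18) with an adjusted p of 0.164 in edgeR without the block. With the block it was 0.86 (SE 0.12, adjusted p 0.00364 in edgeR), under the limit of 1 on the fold change. PNX was 1.60-fold over sham in the earlier deposit (1.58 to 1.62) and 2.06-fold in the later (2.01 to 2.11). Per 1000 Pecam1 counts, Cd34 was at 229 and 273 in sham and at 377 and 534 after PNX. Among all genes tested, 1139 of 16598 had a higher log2 fold change. The 2 Cd34 transcripts in the table (NM_001111059 and NM_133654) had nearly the same counts, 22950 and 22891 in sham replicate 1, so the CPM and the level per Pecam1 count, which sum both, hold most reads on each of them and overstate the level of Cd34 between genes. The fold within each deposit is of the higher transcript alone, and with that transcript alone the log2 fold change was 0.87 without the block and 0.86 with it. The antisense gene Gm16897 was also higher after PNX, at 3555, 3196 and 1502 counts in sham and 5280, 4650 and 2769 after PNX. The study's methods name a stranded library kit, but not whether the counting used strand, so it is unknown whether reads of the pair were kept apart.

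Mcam, the adhesion molecule, was at 350, 345 and 305 CPM in sham and at 420, 414 and 418 CPM after PNX. The PNX libraries were within 6 CPM of each other and all above the sham libraries, the lowest of which was the later one. The sample means were 327 ± 35.1 CPM and 418 ± 5.34 CPM (SD, n = 2), a log2 fold change of 0.36 (SE 0.15, adjusted p 0.450 in edgeR without the block). With the block it was 0.36 (SE 0.10, adjusted p 0.0469 in edgeR, but 0.0505 without sham replicate 1, 0.0550 without PNX replicate 1 and 0.0531 with the highest transcript of each gene). PNX was 1.18-fold over sham in the earlier deposit (1.17 to 1.19) and 1.40-fold in the later (1.36 to 1.44). The 3 tip cell marker genes thus did not share a direction after PNX.

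**Figure D2:**
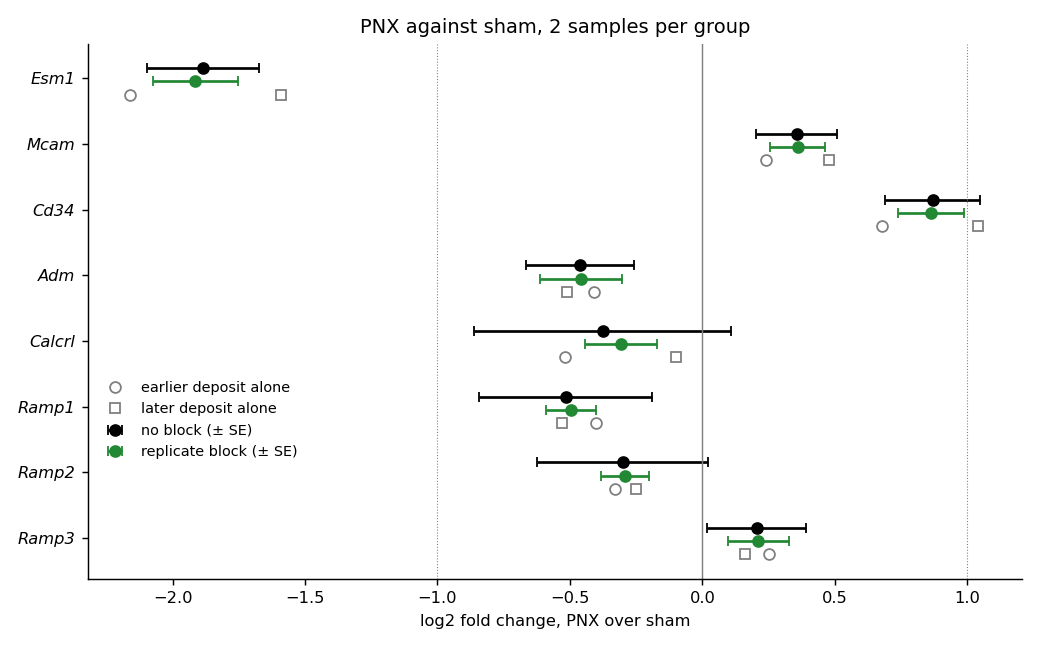
Log2 fold change of PNX over sham for each of the 8 genes, without and with the replicate block (bars, SE) and within each deposit. Esm1 lies near -1.9 in both fits, Cd34 near 0.87, and Calcrl has the widest bar without the block (SE 0.48).

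Adm, the ligand, was at 5.40, 4.83 and 5.47 CPM in sham and at 4.21, 3.60 and 3.76 CPM after PNX. Every PNX library was below every sham library, by a narrow margin between 4.83 and 4.21 CPM. The sample means were 5.31 ± 0.156 CPM and 3.85 ± 0.0767 CPM (SD, n = 2), a log2 fold change of -0.46 that did not pass the test (SE 0.20, adjusted p 0.465 in edgeR, and 0.0770 with the block). At 112 to 435 counts per library Adm was the least counted member, and sham was 1.33-fold over PNX in the earlier deposit (1.19 to 1.49) and 1.43-fold in the later (1.12 to 1.82).

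Calcrl, the receptor, was at 1942 and 1810 CPM in sham replicates 1 and 2 but at 837 CPM in sham replicate 3, and at 1330, 1347 and 767 CPM after PNX. The later deposit was the lower in both groups, by 2.30-fold in sham and 1.72-fold after PNX, so the groups overlapped across deposits. The log2 fold change was -0.38 (SE 0.48, adjusted p 0.832 in edgeR) and with the block -0.31 (SE 0.14, adjusted p 0.155). Sham was 1.43-fold over PNX in the earlier deposit (1.42 to 1.44) and 1.07-fold in the later (1.05 to 1.09). For Calcrl, sham replicates 1 and 2 differed by more than the counting error that these intervals cover.

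Ramp2, the partner that makes Calcrl an adrenomedullin receptor, had the same split, with 403, 411 and 259 CPM in sham against 328, 331 and 213 CPM in PNX libraries. It was 1.61-fold higher in the earlier deposit in sham and 1.52-fold after PNX. The log2 fold change was -0.30 (SE 0.32, adjusted p 0.793 in edgeR, and 0.0588 with the block). Sham was 1.26-fold over PNX in the earlier deposit (1.24 to 1.27) and 1.19-fold in the later (1.16 to 1.23). Ramp2 overlaps Vps25 on the same strand, at 5759 to 14428 counts.

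Ramp1, the partner for CGRP, differed between deposits the other way, at 21.7, 19.9 and 35.2 CPM in sham and at 15.7, 16.0 and 23.2 CPM after PNX. These levels sum several transcripts, of which NM_001168392 and NM_178401 had nearly the same counts, 388 and 387 in sham replicate 1. They thus hold most of those counts more than once and overstate the level of Ramp1 between genes. Within each deposit sham was the higher, by 1.32-fold in the earlier (1.23 to 1.42) and 1.45-fold in the later (1.28 to 1.64), for the most counted transcript alone. The log2 fold change of the summed counts was -0.52 (SE 0.33, adjusted p 0.621 in edgeR) and with the block -0.49 (SE 0.09, adjusted p 0.0107).

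Ramp3, the other adrenomedullin partner, had levels of 8.55, 8.83 and 10.5 CPM in sham against 10.6, 10.5 and 11.5 CPM in PNX libraries, and the groups overlapped slightly at 10.5 CPM. It was the only member of the receptor system above 0, with a log2 fold change of 0.20 (SE 0.19, adjusted p 0.747 in edgeR, and 0.237 with the block). PNX was 1.19-fold over sham in the earlier deposit (1.11 to 1.28) and 1.12-fold in the later, where the interval of 0.961 to 1.30 includes no difference.

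Compared per length, as the authors' TPM of each gene's most counted transcript, Ramp2 had the highest level in sham at 961 ± 312 TPM (SD, n = 2), then Calcrl at 722 ± 398 TPM. Mcam at 283 ± 29.1 TPM and Cd34 at 271 ± 7.42 TPM followed, and then Esm1 at 20.3 ± 2.47 TPM, Ramp3 at 19.7 ± 2.43 TPM, Ramp1 at 16.0 ± 6.15 TPM and Adm at 9.62 ± 0.345 TPM. In this order only Calcrl against Mcam and Cd34 against Esm1 were apart by more than their summed SDs. After PNX the order was Ramp2 at 777 ± 223 TPM, Calcrl at 555 ± 204 TPM, Cd34 at 493 ± 74.0 TPM, Mcam at 362 ± 6.93 TPM, Ramp3 at 22.7 ± 1.84 TPM, Ramp1 at 11.5 ± 3.67 TPM, Adm at 6.95 ± 0.0719 TPM and Esm1 at 5.52 ± 0.878 TPM. Esm1 was the fifth of the 8 in sham and the last after PNX, in which order only Ramp2 with Calcrl and Calcrl with Cd34 were within their summed SDs of each other.

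**Figure D3:**
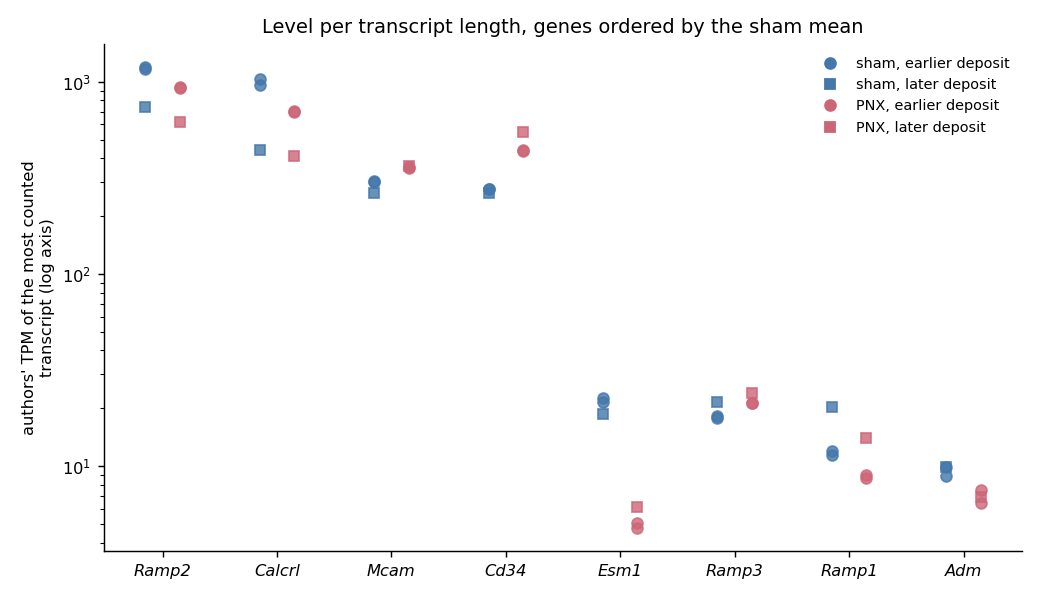
Levels of the 8 genes in TPM of the most counted transcript, on a log axis, in order of the sham mean, for the earlier and later samples of each group. Ramp2 and Calcrl lie highest in sham and PNX, and Esm1 moves from about the level of Ramp3 to the lowest.

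Ramp2 made up nearly all of the RAMP transcripts, per length, at 95.5% and 90.0% in the earlier and later sham samples and 95.02% and 90.7% in the PNX samples. Ramp1 made up 3.04% and 7.38% in sham and 2.81% and 5.85% after PNX, and Ramp3 made up 1.46% and 2.61% in sham and 2.17% and 3.51% after PNX. Each share differed more between the deposits than between the groups. Within both deposits the Ramp1 share was lower and the Ramp3 share higher after PNX, while the Ramp2 share was lower in the earlier and higher in the later. Without regard to the deposits, an exact two-sided permutation test gave 0.667 for Ramp1, 1.0 for Ramp2 and 0.667 for Ramp3, the smallest p for 2 against 2 samples being 0.33. The ratio of Ramp2 to Calcrl was higher after PNX in the earlier deposit (1.18 in sham and 1.34 after PNX) and lower in the later (1.68 and 1.51). Its mean was 1.43 ± 0.357 in sham and 1.42 ± 0.120 after PNX (SD, n = 2), with a p of 1.0 in the same exact permutation test. The Ramp1 shares sum transcripts with nearly the same counts, so they hold most of those counts more than once and overstate Ramp1. The order of the lesser partners depended on the transcripts taken: counting only the highest transcript of each gene, Ramp1 was at 1.79% and Ramp3 at 2.11% in sham.

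All 20 of a list of other genes known from tip cells were tested, and their median log2 fold change was -0.10, against -0.01 over all genes. No gene of it was called without the block. With the block 3 were called higher and 1 lower, where 5.12% of all genes tested were called. At an adjusted p under 0.05 with no limit on fold 8 were higher and 7 lower, where 11.5% of all genes were higher and 10.1% lower. Fscn1, which bundles actin in filopodia, had 21.0 and 15.2 CPM in the earlier and later sham samples and 56.3 and 56.4 CPM in the PNX samples, with a log2 fold change with the block of 1.64 (adjusted p 0.000171, edgeR). Nid2, a basement membrane protein, went from 14.0 and 15.7 CPM to 28.0 and 44.8 CPM. Col4a1, a chain of type IV collagen, went from 957 and 724 CPM to 1712 and 1660 CPM. Igfbp3, a secreted binding protein of insulin-like growth factors, was the gene called lower, from 83.3 and 62.0 CPM in sham to 24.9 and 29.0 CPM after PNX. With the block Esm1 and Igfbp3 thus fell while Fscn1, Nid2 and Col4a1 rose, and the cell types behind these differences were not tested. The others under 0.05 are named here after their values were seen. Apln, Angpt2, Cxcr4, Dll4, Nrp1 and Efnb2 were lower, at log2 fold changes with the block from -0.53 to -0.28. Nid1, Nrp2, Unc5b, Pgf and Col4a2 were higher, at 0.61 to 0.96. In the list of 11 stalk cell genes, the median was -0.25, and 4 were lower at an adjusted p under 0.05 with the block and none was called. These were Hey1, a Notch target, at a log2 fold change with the block of -0.76, Tek, the angiopoietin receptor, at -0.51, Aplnr, the apelin receptor, at -0.42, and Flt1, a decoy receptor for VEGF, at -0.40.

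Of a list of 20 other genes of the adrenomedullin and CGRP pathway, 18 were tested, and Adm2 and Iapp were not, as their counts were too low. The median log2 fold change was -0.03. With the block 2 were called, both higher, where 5.12% of all genes tested were called. These were Calca, whose transcripts encode calcitonin or the CGRP alpha peptide, and Calcb, which encodes CGRP beta, both ligands of Calcrl with Ramp1. Calca was at 0.905 and 2.86 CPM in the sham samples and 17.8 and 10.8 CPM in the PNX samples, with a log2 fold change with the block of 3.23 (adjusted p 0.00450, edgeR). These levels sum 3 transcripts, of which NM_001289444 had the same counts as NM_001033954 in every library, so they hold those counts on both and overstate the level. NM_001033954 had 21, 22 and 26 counts in sham and 523, 445 and 116 counts after PNX, and NM_007587 had 23, 27 and 45 and then 308, 255 and 86, so each was higher in every PNX library than in any sham library. Calcb had levels of 0.260 and 0.412 CPM in sham against 2.38 and 1.69 CPM in PNX, from at most 24 counts in a sham library (adjusted p 0.00200 with the block, edgeR). Mme (neprilysin), which degrades these peptides, was lower at an adjusted p of 0.0317 with the block (edgeR), with a log2 fold change of -0.73. At an adjusted p under 0.05 with the block 1 gene of the list was lower, where 10.1% of all genes tested were. Arrb1 (beta-arrestin), which binds activated G protein-coupled receptors, had a log2 fold change of -0.29 with the block that did not pass (adjusted p 0.102, edgeR). In the same samples the receptor genes Calcrl and Ramp1 were not higher after PNX than in sham in either deposit.

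**Figure D4:**
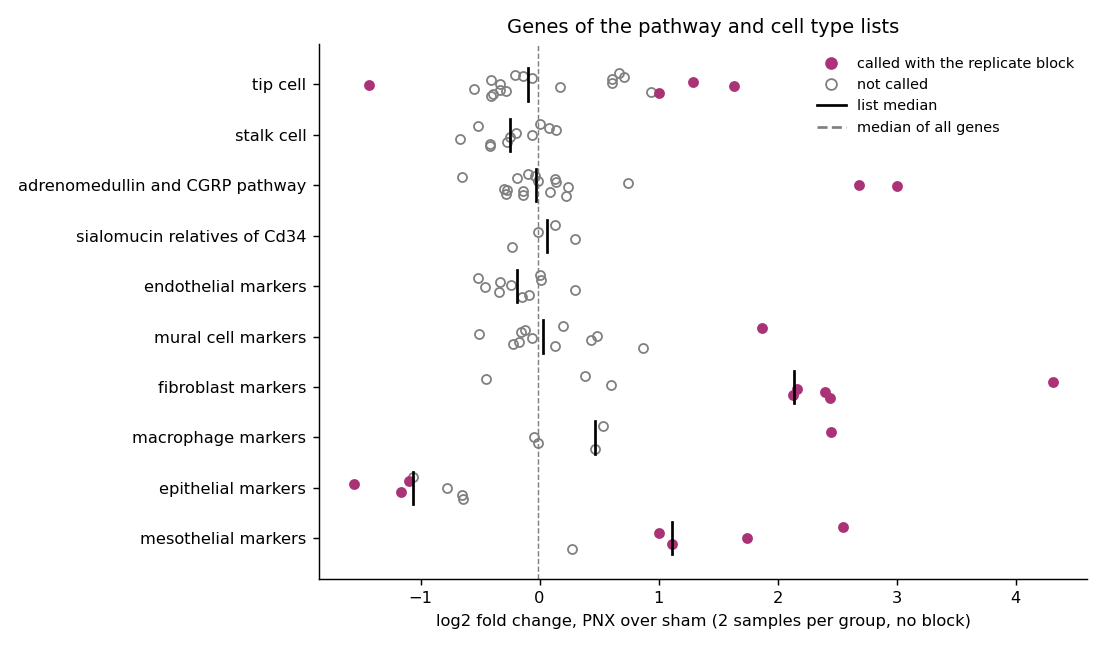
Log2 fold change of PNX over sham, without the block, for each gene of the lists (points, filled where called with the replicate block), with each list's median (bar) and that of all genes (dashed). Fibroblast and mesothelial genes lie mostly above 0, epithelial genes below 0, and tip cell genes on both sides.

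Several markers of other cell types differed between sham and PNX. No gene of these lists was called without the block, and the calls given here are with it. Of all genes tested 5.12% were called with the block. At an adjusted p under 0.05 with the block, 11.5% of them were higher and 10.1% lower. Of the 8 fibroblast genes, 7 were higher and 1 lower at an adjusted p under 0.05 with the block, and 5 were called higher with the block (Lum at a log2 fold change of 4.25, Col1a1, Col3a1, Dcn and Col1a2), the median without the block was 2.14, and the summed level went from 1123 and 1298 CPM in sham to 3479 and 4987 CPM after PNX. The lower one, Pdgfra, a growth factor receptor of fibroblasts named here after its values were seen, went from 400 and 321 CPM to 335 and 194 CPM (log2 fold change -0.49 with the block, adjusted p 0.0326, edgeR). All 7 epithelial genes had a log2 fold change below 0 and an adjusted p under 0.05 with the block. Of these, 3 were called lower (Scgb1a1 of club cells at -1.50 with the block, Foxj1 and Sftpb), and the sum went from 10000 and 9340 CPM to 6418 and 2918 CPM. Of the 5 mesothelial genes 4 were called higher (Wt1 at 2.57 with the block, Msln, Lrrn4 and Upk3b), with sums of 136 and 346 CPM and then 290 and 794 CPM, which overlapped across deposits. The 12 mural cell genes had a median of 0.03, with only Rgs5 called higher, and their sums, 479 and 614 CPM in sham and 615 and 472 CPM after PNX, overlapped. At an adjusted p under 0.05 with the block Abcc9 was higher too, at a log2 fold change of 0.86, and no mural gene was lower. Of the 5 macrophage genes tested, Marco was called higher, and at an adjusted p under 0.05 with the block Cd68 and Mrc1 were higher too, each at a log2 fold change of 0.56, and none was lower. Their sums, of which Lyz2 made up most, were 2314 and 4140 CPM in sham and 2842 and 3853 CPM after PNX. None of the 10 endothelial markers was called in either fit, their median was -0.19, and their sums were 13730 and 10890 CPM in sham and 10860 and 9815 CPM after PNX. At an adjusted p under 0.05 with the block 2 of them were lower, Tek at a log2 fold change of -0.51 and Eng at -0.45. No endothelial marker was higher by that measure. Cd34 is known from fibroblasts and Mcam from pericytes as well as ECs, and Calca from neuroendocrine cells of the airway, and the part of such cells in the values above was not tested. Neither was the part of other cell types in the values of the tip cell list, Nid2 and Col4a1 included.

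By Pearson's r of their log2 CPM over the 6 libraries, of which replicates 1 and 2 of a group are nearly the same sample, the genes most like Esm1 were AI661453 (0.999), Cyyr1 (0.999) and Sema6a (0.997), and 414 of 14118 genes reached 0.95. Those most like Adm were Agbl3 (0.994), Ap1s3 (0.989) and Wdr74 (0.989), and 84 genes reached 0.95. Those most like Calcrl were Cyp8b1 (0.999), Zfp958 (0.999) and Tra2a (0.999) and 722 genes reached 0.95, while Calcrl and Ramp2 correlated at 0.982. These values describe the 6 libraries and were not tested. Within the members, Cd34 and Mcam correlated at 0.921, Esm1 and Adm at 0.913, and Esm1 and Cd34 at -0.945.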

How the data were processed

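RNA of CD31-isolated lung ECs was sequenced as 3 sham and 3 PNX libraries, grouped by the labels, which give the mice an age of 8 weeks while the methods of the study give an older range. The submitters' processing notes name STAR and mm10. The authors deposited, per library, whole-number read counts, FPKM and TPM for 33068 RefSeq transcripts of 24063 symbols, made from stranded mRNA libraries per the study's methods, which do not give the counting rule or its strand setting. The deposited FPKM entered no result, and the authors' TPM was used only for levels between genes and for the lengths behind the RAMP shares. The counting intervals within each deposit use only the most counted transcript of each gene, so a read shared between its transcripts enters them once.

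Transcript counts were summed per symbol. Replicates 1 and 2, marked in the labels as used before, had a chi-square per degree of freedom of 1.75 in sham and 1.57 in PNX, against 67.9 to 86.4 for pairs with replicate 3, and were summed to 1 sample. The test was edgeR's quasi-likelihood test (version 4.0.16, R 4.3.3, TMM scaling, filterByExpr) with Benjamini-Hochberg adjustment over all genes, and DESeq2 1.42.0 and limma-voom 3.58.1 were the alternatives. Calls required an adjusted p below 0.01 with a log2 fold change beyond 1 in either direction. The SE is the log2 fold change over the root of the F statistic. The labels pair sham and PNX by deposit, and over 14156 genes the deposits differed alike in sham and PNX (Pearson r = 0.732), so the deposit was used as the replicate block. The members, lists and the rule for named genes were chosen with earlier results of these data known. Named were the 8 members, the genes of each list called in either fit, up to 4 a list with the largest differences at a mean of at least 1 CPM, and the 3 genes most correlated with Esm1, Adm and Calcrl, with Pecam1 and Cdh5 added as checks. The pipeline was run on simulated data with log2 fold changes larger than any that edgeR gave a member in the 4 samples. Smaller changes were not simulated.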

Additional observations from a re-analysis of the deposited data

How the results depend on the processing

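In the 4 samples without the replicate block no member was called by edgeR, and the alternatives differed mainly in whether Esm1 passed. Esm1 was called, as 1 of 8 members, with the block (log2 fold change -1.91, 849 genes called), with 6 separate libraries (-1.97, 409 genes), with 6 libraries and the block (-2.00, 1104 genes) and with DESeq2 (-1.89, 572 genes). The block combined with another choice, added after the data were seen, also called it: DESeq2 (-1.90, 810 genes), limma-voom (-2.02, 921 genes), DESeq2 size factors (-1.91, 624 genes), upper-quartile scaling (-1.92, 646 genes), library size alone (-1.90, 629 genes) and the highest transcript of each gene (-1.91, 727 genes). With the block and without sham replicate 1, sham replicate 2, PNX replicate 1 or PNX replicate 2 it was -1.89, -1.92, -1.92 and -1.89, with 671, 668, 485 and 863 genes called. With 6 libraries the Esm1 call was kept without sham replicate 3 (-2.04, 517 genes) or PNX replicate 3 (-2.07, 332 genes) and lost without sham replicate 1, sham replicate 2, PNX replicate 1 or PNX replicate 2 (adjusted p 0.0144, 0.0146, 0.0120 and 0.0108), and 49 genes were called without PNX replicate 2. In the 4 samples without the block, leaving out 1 library, 0 to 2 genes were called, the 2 without PNX replicate 3. At an adjusted p under 0.05 with the block and no limit on fold, 3584 genes and 4 members passed, among them Mcam at 0.36, Cd34 at 0.86 and Ramp1 at -0.49. No member changed direction in any of 35 alternatives, but Calcrl ranged from -0.84 (without sham replicate 3) to -0.04 (without PNX replicate 3), Ramp2 from -0.59 to -0.03 and Ramp1 from -0.82 to -0.10, with both ends where replicate 3 of a single group was left out, which leaves that group without the later deposit. With the highest transcript Ramp1 was 1.79% of the RAMP genes in sham and 1.53% after PNX. With GENCODE lengths the ratio of Ramp2 to Calcrl was 1.09 in sham and 1.09 after PNX, lower than above in both groups. The block called 4 tip cell, 2 pathway, 1 mural, 5 fibroblast, 1 macrophage, 3 epithelial and 4 mesothelial genes, and 5.12% of all genes tested. The fit without the block called none. The smallest member, Adm, at 112 to 435 counts, has the widest counting intervals. The cause of the other changes was not tested.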

Other observations

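The sialomucin relatives of Cd34 differed from it in size of change. Podxl (podocalyxin), Podxl2, Emcn (endomucin) and Cd164 had log2 fold changes of -0.01, 0.13, 0.30 and -0.23, and none of the 4 was called or had an adjusted p under 0.05 with the block (edgeR). The difference between Cd34 and its relatives was not tested.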
